A study of Mus musculus with 2 samples.

Results

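The genes described here encode 38 enzymes that make nucleotides or move the folate-bound carbon units nucleotides are built with. They were chosen by name, with earlier results of these data known, and set beside the 18193 genes read on the arrays. They comprise 12 enzymes of purine synthesis, 8 of pyrimidine synthesis, 8 of salvage, 5 of deoxynucleotide synthesis and 5 of folate metabolism. The series set a culture given silncMDSC, an siRNA aimed at a long non-coding RNA named lncMDSC in the labels and lnc-C/EBPβ in the study, against a culture given control siRNA. Both began as marrow from C57BL/6 mice and spent 4 days in GM-CSF and IL-6, cytokines under which marrow gives rise to MDSCs (myeloid-derived suppressor cells), immature myeloid cells of neutrophil and monocyte kind that dampen T cell responses. Total RNA (6 µg) of each culture was read on 1 Affymetrix Mouse Genome 430 2.0 array, so each group was 1 sample, no difference below has a replicate error and no test was possible. How many mice gave the marrow is not stated in the labels, and the level of the targeted RNA was not analysed here.

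Cells obtain nucleotides by 2 routes. In de novo synthesis the purine ring is assembled on the activated sugar PRPP, step by step, until inosine monophosphate (IMP) is made, and the pyrimidine ring is made as uridine monophosphate (UMP). In salvage, bases and nucleosides released by breakdown are joined again to sugar and phosphate. Folate enzymes hand over the single carbons that purines and thymidylate need, and ribonucleotide reductase turns ribonucleotides into the deoxy form for DNA. De novo synthesis is a known feature of growing and activated leukocytes and a known target of the transcription factor MYC.

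A probe set is the group of oligonucleotides by which the array reads a transcript, and its value is a fluorescence intensity. Of the 38 genes, 37 had a probe set annotated to that gene alone. Impdh2 had none and has no value here. A gene was read from the brightest of these probe sets, and was counted when the higher of its 2 values reached an intensity of 78.4, the median of all probe sets, called the floor. All but Tyms passed, which left 36, each above the floor on both arrays. The Tyms value was 70.2 in silncMDSC and 67.0 in control siRNA, and a brighter probe set shared with its pseudogene read 461 and 549 in the same order. Differences are log2(intensity + 1) in silncMDSC minus that in control siRNA. Over all 11920 genes above the floor their median was -0.002, their robust SD 0.18 and their 5th and 95th percentiles -0.37 and 0.30. This spread mixes noise with real differences of other genes.

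Of the 12 enzymes that were lower in the silncMDSC culture by 0.32 or more on the log2 scale, 10 were among the 19 of purine and pyrimidine synthesis above the floor, 1 was a salvage enzyme and 1 a folate enzyme. The other 9 of purine and pyrimidine synthesis were nearer to level. Of the 36 genes, 4 were at least 1.5-fold lower (11.1%, against 1.42% of all genes above the floor) and 0 at least 1.5-fold higher (0.948% of all genes). At the smaller step of 0.32, 12 were lower (33.3%, against 6.95%) and 0 higher (4.45% of all genes). In all, 31 of the 36 lay below 0 (86.1%, against 50.7%), and their median difference was -0.14. None was 2-fold apart. The 4 were Pfas, Ctps, Gart and Ppat, and the smaller step added Atic, Mthfd1, Cad, Adsl, Umps, Prps1, Uck2 and Dhodh. The nearest outside the line for 1.5-fold were Atic at 1.48-fold and Mthfd1 at 1.48-fold lower. Since the enzymes were chosen with earlier results of these data known, the shares above describe the list and test nothing.

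**Figure D1:**
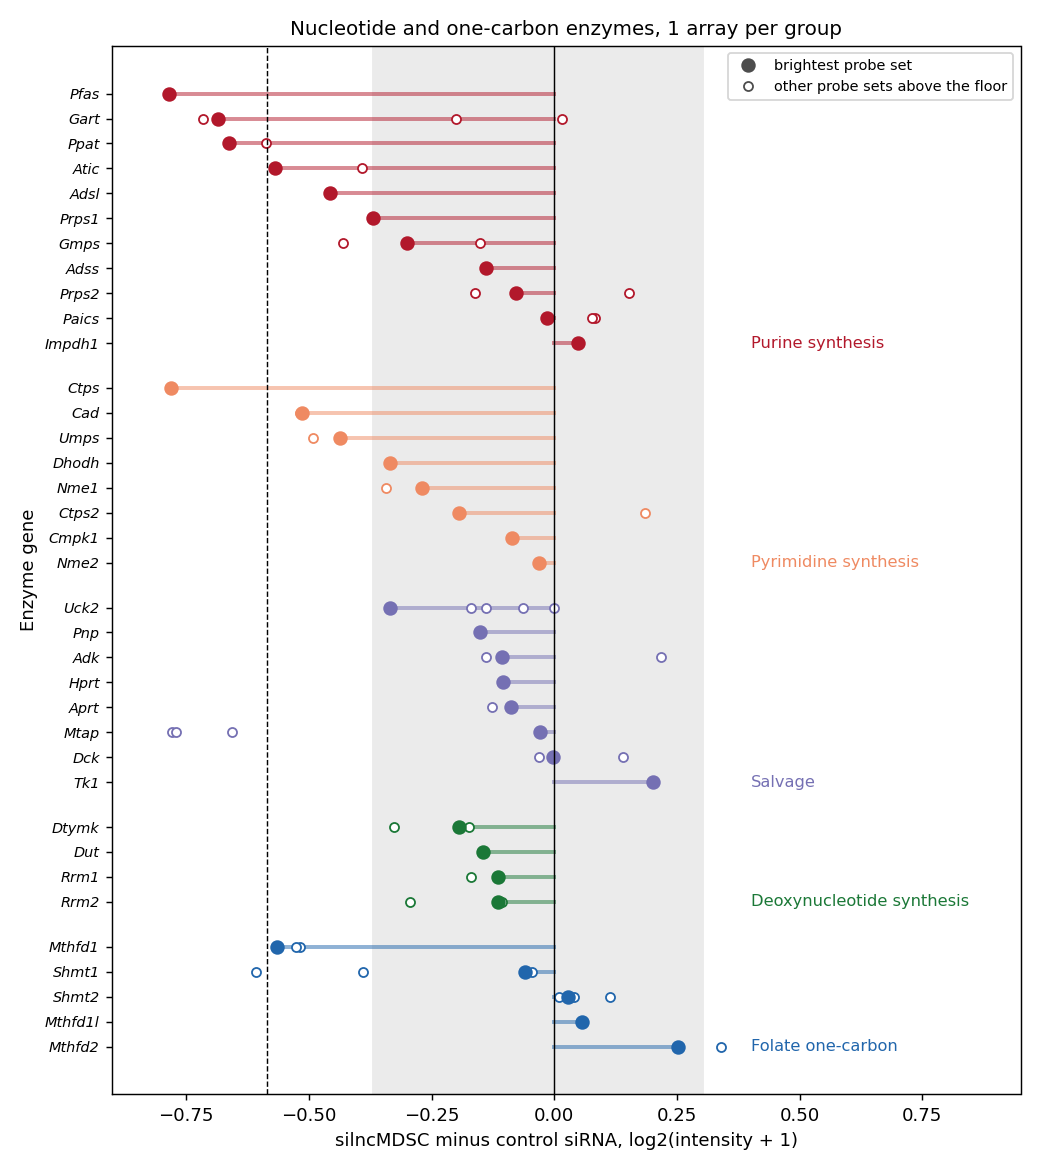
Difference between silncMDSC and control siRNA (x axis, log2) for each enzyme gene above the floor (y axis), from its brightest probe set (filled) and its other probe sets above the floor (open), with the central 90% of all genes in grey and the line for 1.5-fold lower dashed. Purine genes reach -0.78 for Pfas and the gene highest above 0 is Mthfd2 at 0.25.

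The purine class had the lowest median of the 5, -0.37 over 11 genes, of which 10 lay below 0, 6 were lower by 0.32 or more and 3 at least 1.5-fold lower. Most of these lie between PRPP and IMP. Of the 6 enzymes of that stretch, 5 were lower by 0.32 or more, and the median of the 6 was -0.62. Ppat, which commits PRPP to the pathway, had an intensity of 146 in silncMDSC and 232 in control siRNA, 1.58-fold lower. Gart, which catalyses several of the early steps, had 374 in silncMDSC and 602 in control siRNA, 1.61-fold lower. Pfas, which adds an amide nitrogen from glutamine, had 203 in silncMDSC and 350 in control siRNA, 1.72-fold lower, and 67 of the 11920 genes had a lower difference. Only 1 probe set reads Pfas. These 3 were the purine enzymes farthest from level.

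Further along the same stretch, Adsl, which removes fumarate both here and on the way to AMP, had 424 in silncMDSC and 583 in control siRNA (difference -0.46). Atic, which adds the last carbon and closes the ring, had 749 in silncMDSC and 1111 in control siRNA (-0.57). Paics did not follow the others. It carries out steps between Pfas and Adsl and had 2119 in silncMDSC and 2140 in control siRNA (-0.01, above 0 in 3 of 9 alternative processings), with 0.08 on each of its 2 other probe sets. Ppat and Paics are neighbours on opposite strands of chromosome 5 whose annotated 5′ ends overlap, and their differences were -0.66 and -0.01.

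Before and after this stretch the purine enzymes differed less. Prps1, which makes PRPP, had 406 in silncMDSC and 524 in control siRNA (-0.37), and a probe set that it shares with Prps1l3 gave -0.62. Its paralog Prps2 had 472 in silncMDSC and 499 in control siRNA (-0.08), and its other 2 probe sets lay at -0.16 and 0.15. Past IMP, Gmps, which completes GMP, had 611 in silncMDSC and 752 in control siRNA (-0.30), and all 3 of its probe sets were below 0. Adss, on the branch to AMP, had 514 in silncMDSC and 567 in control siRNA (-0.14). Impdh1, on the branch to GMP, had 256 in silncMDSC and 247 in control siRNA (0.05) and was the only purine gene above 0 on its brightest probe set.

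**Figure D2:**
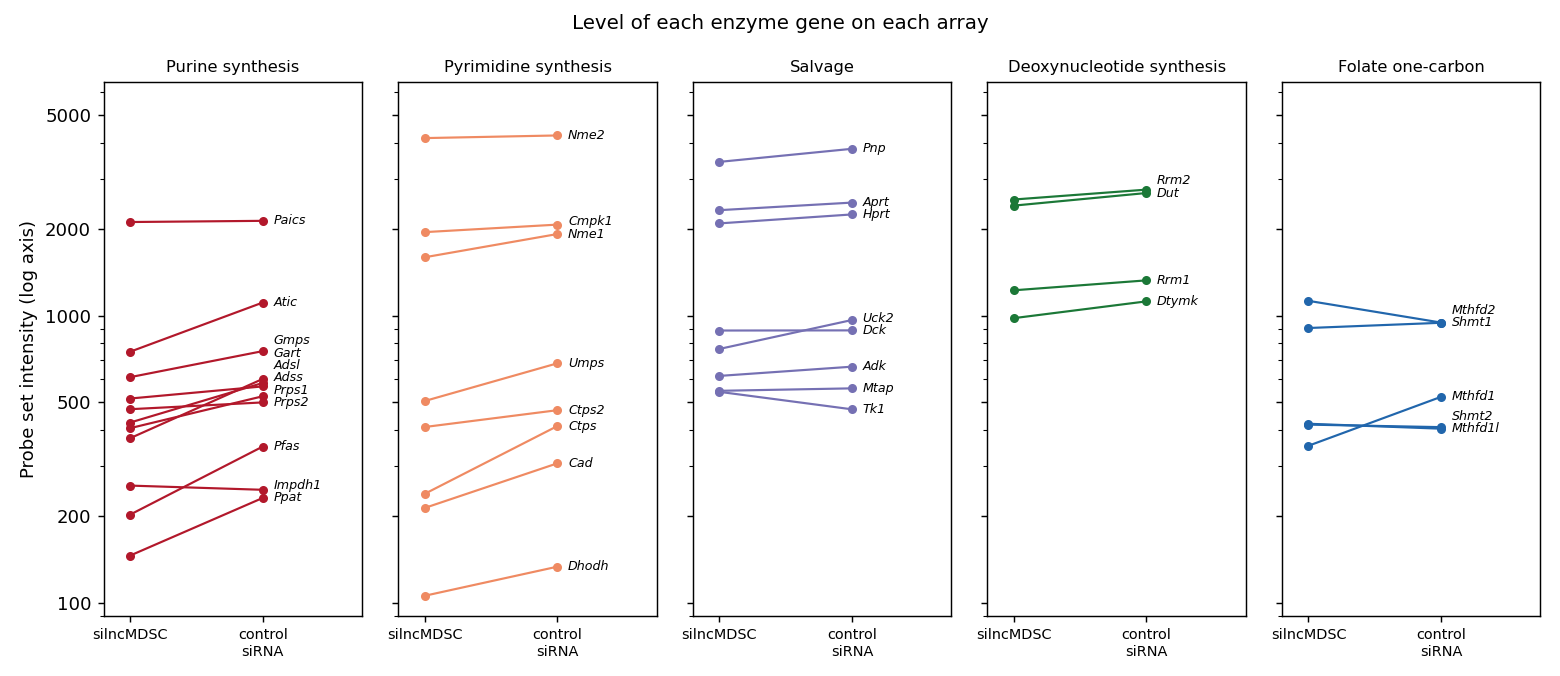
Probe set intensity (y axis, log scale) of each enzyme gene above the floor on the silncMDSC array and the control siRNA array (x axis), in 1 panel per class, each line a gene on 1 array per group. The steepest lines are those of Pfas, Gart, Ppat and Ctps, while those of Paics (2119 in silncMDSC, 2140 in control siRNA) and Nme2 (4156 in silncMDSC, 4245 in control siRNA) are almost flat.

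All 8 pyrimidine genes lay below 0 (Nme2 above 0 in 2 of 9 alternative processings), with a median of -0.30, and 4 were lower by 0.32 or more. The 3 enzymes that make UMP were lower together. Cad, which carries the first steps on a single protein, had 214 in silncMDSC and 306 in control siRNA (-0.51), and its next probe set gave -0.52. Dhodh, the mitochondrial step, had 106 in silncMDSC and 133 in control siRNA (-0.33), and its other probe set gave -0.34. Both lie near the floor. The other probe set had 75.6 in silncMDSC, below the floor, and 95.7 in control siRNA, and Dhodh did not pass an alternative floor at the 75th percentile. Umps, which completes UMP, had 504 in silncMDSC and 682 in control siRNA (-0.44), with -0.49 on its next probe set.

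The CTP synthases, which turn UTP into CTP, were a pair of unequal members. Ctps had 239 in silncMDSC and 412 in control siRNA, 1.72-fold lower, with 69 of the 11920 genes lower still, but only 1 probe set reads it. Ctps2 had 409 in silncMDSC and 468 in control siRNA (-0.19), and its next probe set lay on the opposite side at 0.18. The kinases that raise nucleotides to the triphosphate level were closer to level. Nme1 had 1597 in silncMDSC and 1925 in control siRNA (-0.27, and -0.34 on its other probe set), and its neighbour on chromosome 11, Nme2, had 4156 in silncMDSC and 4245 in control siRNA (-0.03). Cmpk1, the UMP and CMP kinase, had 1954 in silncMDSC and 2076 in control siRNA (-0.09). The closely related Nme1 and Nme2 sequences may share some probe signal, which was not tested.

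On their brightest probe sets, salvage genes lay near 0, with a median of -0.10 over 8 genes, 7 of them below 0 and 1 lower by 0.32 or more. For Uck2 and Mtap the size of the difference depends on the probe set, and for Adk and Dck its sign does, as given below. The gene lower by 0.32 or more was Uck2, the uridine and cytidine kinase, with 765 in silncMDSC and 965 in control siRNA (-0.33). Its other 4 probe sets above the floor ran only from -0.17 to -0.001. Hprt, which recovers hypoxanthine and guanine, had 2096 in silncMDSC and 2252 in control siRNA (-0.10). Aprt, which recovers adenine, had 2331 in silncMDSC and 2477 in control siRNA (-0.09), and Pnp, which frees purine bases from nucleosides, had 3433 in silncMDSC and 3813 in control siRNA (-0.15). None of these base-recovery genes was as far as 0.32 from 0.

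The nucleoside kinases of salvage varied in sign. Adk, the adenosine kinase, had 617 in silncMDSC and 664 in control siRNA (-0.11), and its further probe sets above the floor gave -0.14 and 0.22. Dck, the deoxycytidine kinase, had 887 in silncMDSC and 889 in control siRNA (-0.002, of either sign over the alternative processings). The further probe sets of Dck gave -0.03 and 0.14. Tk1, the thymidine kinase of dividing cells, had 543 in silncMDSC and 472 in control siRNA (0.20) and was the only salvage gene higher on its brightest probe set. Mtap, which recovers adenine from a by-product of polyamine synthesis, was read in 2 ways. Its brightest probe set had 547 in silncMDSC and 558 in control siRNA (-0.03), whereas the next had 338 in silncMDSC and 580 in control siRNA (-0.78) and the remaining 2 gave -0.77 and -0.66. The size of the Mtap difference thus depends on the probe set read.

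Deoxynucleotide genes formed the narrowest class, with all 4 genes above the floor between -0.19 and -0.11 on their brightest probe sets and a median of -0.13. Rrm1, the large subunit of ribonucleotide reductase, had 1226 in silncMDSC and 1327 in control siRNA (-0.11). Rrm2, the small subunit, which is made in dividing cells, had 2539 in silncMDSC and 2748 in control siRNA (-0.11). The alternative small subunit Rrm2b had 164 in silncMDSC and 174 in control siRNA (-0.08). Dut, which removes dUTP, had 2417 in silncMDSC and 2675 in control siRNA (-0.15), and Dtymk, the thymidylate kinase, had 980 in silncMDSC and 1121 in control siRNA (-0.19). On the brightest probe sets none was as far as 0.32 from 0, but 1 further probe set of Dtymk gave -0.33 and 1 of Rrm2 gave -0.29.

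Of the 5 folate genes, Mthfd1 stood farthest from 0. Mthfd1, the cytosolic enzyme that supplies formyl folate to Gart and Atic, had 352 in silncMDSC and 521 in control siRNA (-0.56), and its other 2 probe sets gave -0.52 and -0.53. The 3 mitochondrial enzymes of the class lay above 0. Mthfd2 had 1126 in silncMDSC and 946 in control siRNA (0.25, and 0.34 on its other probe set), and 919 of the 11920 genes were higher. Mthfd1l, which releases formate, had 420 in silncMDSC and 404 in control siRNA (0.06), and Shmt2, which takes a carbon from serine, had 417 in silncMDSC and 409 in control siRNA (0.03), with all 4 probe sets above 0. The differences of Mthfd1l and Shmt2 are within the robust SD of all genes.

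Shmt1, the cytosolic counterpart of Shmt2, was uncertain. Its brightest probe set had 906 in silncMDSC and 944 in control siRNA (-0.06), the next gave -0.61, and the other 2 gave -0.39 and -0.04. The class median was 0.03 over 5 genes, and 1 of them, Mthfd1, was lower by 0.32 or more.

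Probe sets of the same gene gave a check on reading within the arrays, though they are not replicates of the cultures. The 37 genes had 78 probe sets above the floor, of which 62 lay below 0 and 10 were at least 1.5-fold lower (12.8%, against 1.46% of all such probe sets with 1 gene symbol), and 0 were 1.5-fold higher. The 10 include the brightest probe sets of Pfas, Ctps, Gart and Ppat, already counted above, so their share is no separate support. The rest are further probe sets of Ppat, Gart, Mtap and Shmt1, and Mtap and Shmt1 were near 0 on their brightest. Of the 23 enzymes with 2 or more probe sets above the floor, 15 had all of them below 0, 2 had all of them above 0 and 6 had both signs. All probe sets above the floor were lower by 0.32 or more in 6 of the 23, against 3.03% of the 4845 genes with 2 or more. These were Ppat, Atic, Cad, Dhodh, Umps and Mthfd1. The dimmest probe sets of Dhodh and Mthfd1 among them were below the floor in silncMDSC, at 75.6 and 76.1. The 2 brightest probe sets differed by a median of 0.08 over the 23, against 0.09 over the 4845 genes, but the 90th percentile of this gap was 0.46 over the 23, against 0.29. Of the genes at least 1.5-fold lower, Pfas and Ctps are each read by 1 probe set and had no such check. Of Gart and Ppat, Gart was the less settled, since its 4 probe sets gave -0.68, -0.20, -0.71 and 0.02.

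**Figure D3:**
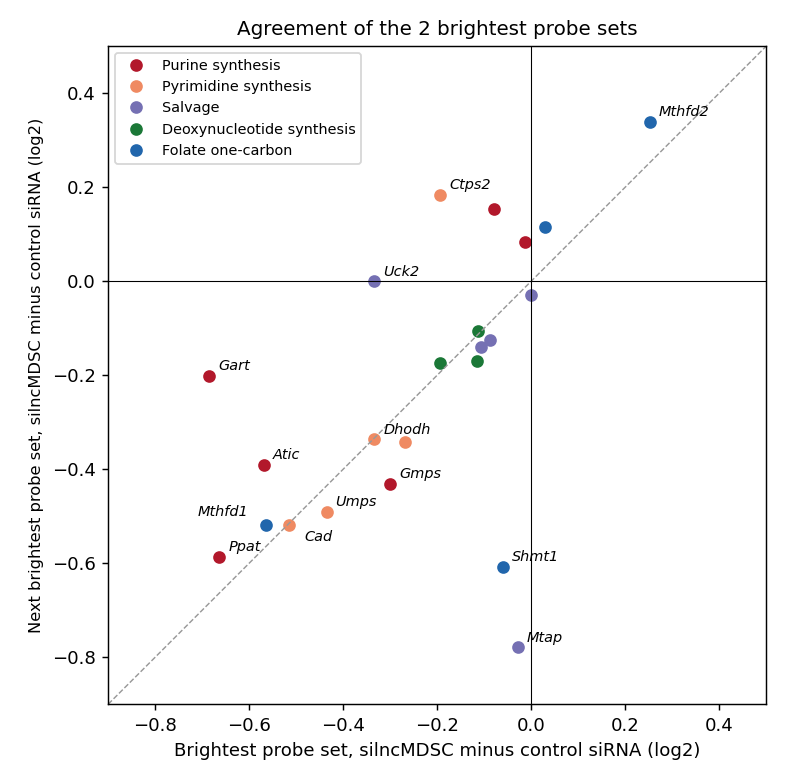
Difference on the brightest probe set (x axis, log2, silncMDSC minus control siRNA) against that on the next brightest (y axis) for the 23 enzyme genes with at least 2 probe sets above the floor, with equality dashed and colours for the classes. Ppat, Cad, Umps, Dhodh and Mthfd1 lie close to the diagonal below 0, whereas Gart, Mtap and Shmt1 lie off it by 0.48, 0.75 and 0.55.

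Other genes of nucleotide and folate metabolism were listed for comparison. Of 12 further nucleotide kinases above the floor, out of 15 listed, 1 was at least 1.5-fold lower and the median was 0.05. That gene, Cmpk2, a mitochondrial kinase induced by interferon, had 302 in silncMDSC and 497 in control siRNA (-0.72), but 0.11 on its other probe set. Nme6 was at -0.40, and Dguok, a mitochondrial deoxyguanosine kinase, at 0.32, just short of the smaller step. Genes of nucleotide breakdown and conversion had a median of -0.07 over 21 of 31, with 0 at least 1.5-fold apart. Among them Ada, the adenosine deaminase, had 195 in silncMDSC and 271 in control siRNA (-0.48), and Dctd, which supplies dUMP, was at -0.31. Adssl1, the isozyme of Adss, went the other way with 1374 in silncMDSC and 953 in control siRNA (0.53).

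Among the further genes of folate, serine, glycine and methyl metabolism, 18 of 27 passed the floor, the median was -0.11 and 2 were at least 1.5-fold lower. Slc25a32, the carrier that brings folate into mitochondria, had 80.9 in silncMDSC and 140 in control siRNA (-0.79, and -0.88 on its next probe set). Gcsh, a subunit of the glycine cleavage system, had 417 in silncMDSC and 627 in control siRNA (-0.59), and Mtrr, which reactivates methionine synthase, was at -0.56. These included mitochondrial proteins, Slc25a32 and Gcsh, on the other side of 0 from Mthfd2, while Aldh1l1, a cytosolic enzyme that consumes formyl folate, was at 0.31 and its mitochondrial paralog Aldh1l2 at -0.11. The serine synthesis enzymes Phgdh (-0.12), Psat1 (0.08) and Psph (0.02) were nearly level. Mthfd2l, the mitochondrial paralog of Mthfd2, was at -0.11. The Aldh1l, Mthfd2l and serine synthesis genes were not picked by the naming rule and were chosen after their values were seen.

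**Figure D4:**
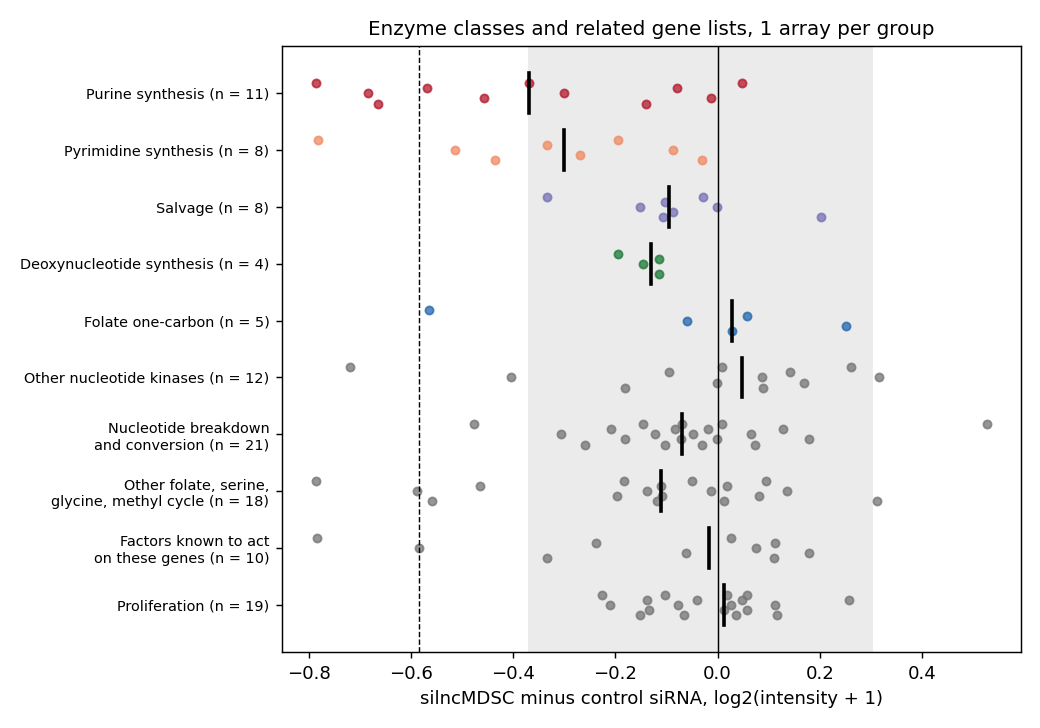
Difference between silncMDSC and control siRNA (x axis, log2) of each gene above the floor (points) in the 5 enzyme classes (colours) and 5 related lists (grey), with list medians as black bars, the central 90% of all genes in grey and the line for 1.5-fold lower dashed. The purine and pyrimidine medians lie at -0.37 and -0.30, against 0.01 for proliferation genes.

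A list of 10 regulators known to act on these genes held 9 transcription factors and the kinase Mtor (0.07). All were above the floor, 1 was at least 1.5-fold lower and the median was -0.02. Myc had 430 in silncMDSC and 741 in control siRNA (-0.78, from its single probe set), with 68 of the 11920 genes lower still. Its partner Max had 215 in silncMDSC and 272 in control siRNA (-0.33), and E2f3, a factor of the cell cycle, was at -0.58 with -0.15 on its other probe set. Proliferation genes had a median of 0.01 over 19 of 20 genes, and on the brightest probe sets 0 were as far as 0.32 from 0. Mki67, a marker of cycling cells, had 1571 in silncMDSC and 1657 in control siRNA. The farthest were Ccnb2, a mitotic cyclin, at 0.26, and the replication helicase subunits Mcm2 at -0.23 (-0.40 on its other probe set) and Mcm3 at -0.21. The list was mixed, since the replication genes Pcna and Mcm2 to Mcm6 lay between -0.23 and -0.10, while Mcm7 was at 0.11 and most mitotic genes lay above 0. Whether the difference in Myc has a part in that of the enzymes was not tested.

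The letters CACGTG are the E-box that MYC with MAX is known to bind. They were searched in promoter windows of 300 bases, from 250 before to 50 after each RefSeq start given (GRCm38.p6). For some genes, Mthfd1 and Uck2 among them, the start given lies inside the annotated gene, so its outer end was not searched. Windows were given for 36 of the 38 genes, not for Pfas and Dhodh. The E-box was in 6 of the 36, namely Paics, Atic, Nme1, Dtymk, Impdh2 and Tyms, and the last pair have no value above the floor. Among the 34 enzymes above the floor with a window it was in 4 (11.8%), against 11.7% of all 9640 genes above the floor with one, so that its share was that of genes in general. The letters TGATGNAA, of the kind that ATF4 binds, were in the window of Prps1 alone (2.94% of the 34, against 2.95%), and the E2F-type letters TTTCGCGC or TTTGGCGC were in 0 of the 34 (1.82% of genes above the floor). Both strands were searched, and a match is a description of the sequence and no sign of binding.

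Stretches before the start are shown for the 4 enzymes above the floor with an E-box, because their differences run from -0.57 in Atic to -0.01 in Paics, and for Prps1. Capitals mark the matched letters. Each is written 5′ to 3′ on the strand of the gene.
Atic, chr1:71557089-71557155, plus strand: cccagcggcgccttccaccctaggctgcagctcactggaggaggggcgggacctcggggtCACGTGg
Nme1, chr11:93968273-93968350, minus strand: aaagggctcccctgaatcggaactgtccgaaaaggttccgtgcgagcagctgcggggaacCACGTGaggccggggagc
Dtymk, chr1:93802017-93802142, minus strand: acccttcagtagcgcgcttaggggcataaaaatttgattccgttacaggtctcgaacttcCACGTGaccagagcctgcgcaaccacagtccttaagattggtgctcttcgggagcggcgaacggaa
Paics, chr5:76951087-76951116, plus strand: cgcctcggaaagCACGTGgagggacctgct
Prps1, chrX:140456373-140456500, plus strand: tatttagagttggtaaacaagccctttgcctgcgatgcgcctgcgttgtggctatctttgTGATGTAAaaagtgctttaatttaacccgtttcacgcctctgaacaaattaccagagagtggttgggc

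The E-box began 7 bases before the start in Atic, 148 in Dtymk, 203 in Paics and 18 in Nme1. A separate E-box, not printed above, began 29 bases before a second start of Nme1. Of the 10 enzymes with a window that were lower by 0.32 or more, 9 held no E-box there (Gart, Ppat, Ctps, Cad, Umps, Mthfd1, Adsl, Prps1 and Uck2), which says only that those letters are not in this stretch. The E-box of Paics lies within the annotated Ppat gene, outside the Ppat window.

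The arrays were alike in general, with median intensities of 79.0 in silncMDSC and 77.9 in control siRNA, and 97.6% of genes above the floor lay within 1.5-fold. Markers of the labelled cells were present. Of 12 MDSC and neutrophil markers 10 were above the floor, with a median of -0.08, and S100a9, a calcium-binding protein of these cells, had 13880 in silncMDSC and 13983 in control siRNA. Of the 10, 8 lay below 0, with Mmp9 and Ltf lowest at -0.19 each. Farthest from 0 was Cxcr2, with 1053 in silncMDSC and 779 in control siRNA (0.44). Markers of some other cells differed between the same arrays. The monocyte list was mixed, with a median of 0.05 over 8 of 9 genes, from Vcan at -1.01 and Fcgr1 at -0.52 to Ccr2 at 0.34 and Cx3cr1 at 0.37. Of 12 macrophage markers 10 were above the floor, with a median of -0.47 and a summed intensity of 11800 in silncMDSC and 14769 in control siRNA. They split into 5 that were 1.61-fold to 1.91-fold lower (Mrc1, Msr1, Apoe, Maf and Mertk) and 5 between -0.25 and -0.001, Adgre1 being level. All 10 dendritic cell markers lay above 0, with a median of 0.52 and a sum of 22673 in silncMDSC and 16696 in control siRNA. The 4 eosinophil markers above the floor, of 6 listed, also lay above 0 and had a median of 0.46 and a sum of 4313 in silncMDSC and 3084 in control siRNA. The part of cell composition in the enzyme differences was not tested, and in bulk RNA fewer cells of a type and less RNA per cell cannot be told apart.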

How the data were processed

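The study's methods name the Affymetrix Mouse Genome 430 2.0 array and limma, called at 2-fold with an adjusted p. Since each group had 1 array, limma could not be fitted, and no p is given. The deposited values are probe set intensities on a linear scale, whose minimum was exactly 1 on each array. The submitters' processing notes name RMA, without a version or an account of the return to linear values. No scanner files were read, so background correction and summary could not be varied. The number of arrays limits the precision.

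Control probe sets (64) were set apart, which left 45037. Of these, 34945 had 1 gene symbol in the platform annotation, 932 several and 9160 none. Genes were read from the probe set with 1 symbol and the highest mean intensity, with a pseudocount of 1. Calls were made by size alone, at 1.5-fold and at 0.32 on the log2 scale. The calculation was tested on simulated data, with changes larger than any enzyme's here and in genes well above the floor. It says nothing of calls on smaller changes or dimmer genes. Python 3.11.15, pandas 2.3.3 and statsmodels 0.14.6 were used.

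The enzymes and all lists were chosen with earlier results of these data known. Every enzyme is named. Of each related list, genes at least 1.5-fold apart and the 3 farthest from 0 are named. Alternatives covered the pseudocount, centring, a loess trend (span 0.3), quantile normalization, the floor, the probe sets read, the threshold and leaving out the farthest member. Protein sequences and a protein comparison of paralogs were not used here.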

Additional observations from a re-analysis of the deposited data

How the results depend on the processing

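The class medians kept their sign and moved by less than 0.1 under every alternative run. The purine median ran from -0.41 to -0.33, the pyrimidine median from -0.34 to -0.27, the salvage median from -0.11 to -0.06, the deoxynucleotide median from -0.16 to -0.10, the folate median from 0.01 to 0.06 and that of all enzymes above the floor from -0.15 to -0.10. The count of 4 enzymes at least 1.5-fold lower became 12 with a threshold of 0.32 on the log2 scale and 0 with a threshold of 2-fold. With the mean of probe sets Gart was at -0.40 and no longer 1.5-fold lower, while Ppat, Pfas and Ctps were 1.5-fold lower in all 9 alternatives run for them. For Pfas and Ctps, each read by 1 probe set, the settings of the floor and of the probe sets could not change the value. Enzymes below 0 numbered 27 to 31, since Dck, Paics, Nme2 and Mtap, all near 0, turned sign in 4, 3, 2 and 2 alternatives. The floor settings cannot change the difference of a gene, and the probe set settings cannot change that of a gene with 1 probe set. Many recalculations therefore could not move, and the next count is no measure of stability. Single genes were within 0.18 of their value in 317 of 323 recalculations. The other 6 were Gart, Ctps2 (-0.01), Uck2 (-0.14), Mtap (-0.56) and Shmt1 (-0.28) with the mean of probe sets, and Shmt1 (-0.61) without probe sets ending in _x_at or _s_at, which follows from their probe sets disagreeing. No paired analysis was possible because each group held 1 array.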
